A study of Canis lupus familiaris with 33 samples.

Results

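The 10 genes described here belong to antigen processing and presentation and were followed in canine invasive urothelial carcinoma (iUC): TAP1, TAP2, TAPBP, PSMB8, PSMB9, NLRC5, ERAP1, CALR, CIITA and CD74. They were taken from the TMM-normalized table by gene symbol, which found 9 of the 10. TAP2 carries its Ensembl ID in the symbol cell and was found by its Entrez ID, so that all 10 of the 25096 genes in the table were described. RNA had been sequenced from 29 tumors of the bladder, each from 1 treatment-naive pet dog and collected by cystoscopic biopsy. The 4 normals were the urothelial layer dissected from full-thickness bladders of dogs euthanized for reasons unrelated to bladder disease. The way of collection thus differed between the groups and cannot be told apart from the tumor state. No genotype, drug or time course separates the samples, and for the tumors dogs of any age, sex and breed were taken. Values are log2 normalized levels from which each gene's own median in the 33 samples was subtracted, so 0 is the middle sample of a gene, a difference of 1 is 2-fold, and levels cannot be compared between genes.

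Cells display fragments of their own proteins on major histocompatibility complex (MHC) class I molecules. The immunoproteasome subunits PSMB8 and PSMB9 cut proteins into peptides, the TAP1 and TAP2 transporter carries these into the endoplasmic reticulum, ERAP1 trims them, and tapasin (TAPBP) and calreticulin (CALR) hold the class I molecule until a peptide is bound. NLRC5 is the transcriptional activator of class I genes. Class II molecules, which show extracellular peptides to helper T cells, are switched on by the activator CIITA and are guided by the invariant chain CD74. Interferon gamma raises most of these genes, and epithelial tumors can gain or lose them, which changes how visible they are to T cells. In the dog the class I and class II molecules are called dog leukocyte antigens (DLA).

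Before the members are compared, some properties of all samples bear on the results. The table has 24471 genes above their lowest value in enough samples to be tested, and in the normals 95.9% to 97.0% of the table's genes lay above that value, against 67.4% to 85.3% in the tumors. No member sat at a shared lowest value in any sample. The 6 smooth muscle markers were higher in every normal than in every tumor, their mean level running from 5.31 to 7.36 in the normals and from -1.06 to 4.03 in the tumors. Of 7 urothelial markers 4 were called higher in tumors, against 10.7% of all genes tested. Among them were the adhesion genes EPCAM and CDH1 and the uroplakin UPK3A (log2 difference 1.85, limma adjusted p = 3.05e-05). The uroplakins UPK1A and UPK2 had log2 differences of 0.03 and 0.04 that changed sign in the DESeq-normalized table. The keratin KRT19 was called (1.09) and was below 2-fold in that table (0.79). The 4 pan leukocyte markers had mean levels of -0.79 to -0.19 in the normals and -1.37 to 2.41 in the tumors, and none of the markers on any list sat at its lowest value throughout a group. In such bulk samples fewer cells of a type and less RNA per cell cannot be told apart. Of other lists, 4 of 6 fibroblast markers (median log2 difference -2.36) and 2 of 5 dendritic cell markers (-1.14) were called lower in tumors. So were 3 of 9 B and plasma cell markers (-0.45) and 2 of 10 T and cytotoxic lymphocyte markers (-0.72). Over all genes tested 45.8% were called lower, with a median log2 difference of -0.84. The dendritic, B and T cell lists each had a smaller share called lower. Called higher were 1 fibroblast marker, 1 of 4 pan leukocyte markers and 1 of 8 myeloid markers, with 1 other myeloid marker lower. The pan leukocyte call was not made in the DESeq-normalized table. Whether these differences in cell type markers between the groups have a part in the differences below was not tested.

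In the comparison of tumors with normals, 7 of the 10 genes were higher in the tumors and none was lower. The change was 4.24-fold for ERAP1, 3.83-fold for TAPBP, 3.45-fold for CALR, 2.64-fold for TAP1, 2.45-fold for PSMB8, 2.37-fold for CD74 and 2.11-fold for TAP2. CIITA, PSMB9 and NLRC5 had higher tumor means but did not pass. A call needed a limma adjusted p of at most 0.05 over all genes tested together with a 2-fold change, and 10.7% of all genes were called higher and 45.8% lower by this rule. The median log2 difference was 1.27 over the members and -0.84 over all genes tested. Where the lowest values were set aside, the median over the remaining 18418 genes was -0.01, and in the DESeq-normalized table it was -0.29. There TAP1, TAPBP, ERAP1 and CALR kept the call (4 of 10), while the log2 differences of TAP2, PSMB8 and CD74 were 0.779, 0.996 and 0.948, all under the threshold of 1. PSMB8 missed the fold threshold narrowly with a limma adjusted p of 0.0483, whereas CD74 missed the p threshold as well (0.0823). Taken relative to the median of those genes, the members' differences were 1.09 (TAP2) to 2.09 (ERAP1) for the 7 called genes in the TMM table, and 1.07 to 2.08 in the DESeq table.

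**Figure D1:**
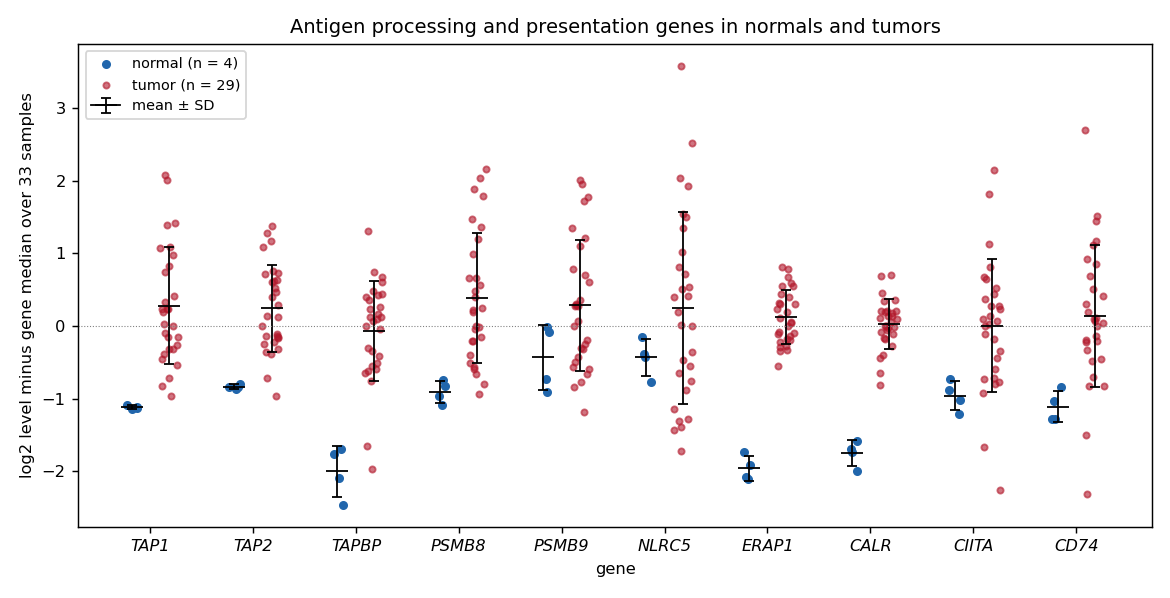
Level of each member in the 4 normals (blue) and 29 tumors (red), as log2 value minus the gene's median over 33 samples, with the mean and SD of each group in black. ERAP1, CALR and TAP1 have every tumor above every normal, whereas NLRC5 spans 5.31 log2 units among the tumors.

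The peptide transporter was nearly identical across the normals. TAP1 was -1.15, -1.13, -1.09 and -1.11 in normals A, B, C and D, and ran from -0.96 to 2.08 in the tumors with a median of 0.20. Every tumor lay above every normal, which was the case for 7.63% of all genes tested. The mean difference was 1.40 ± 0.40 (SE) on the log2 scale, with an adjusted p of 0.00235 in limma. TAP2, the other subunit of the transporter, was -0.83, -0.87, -0.80 and -0.83 in the normals and -0.97 to 1.38 in the tumors, with a median of 0.13. Tumor JE alone lay below the normals, and the other 28 lay above them. The difference was 1.08 ± 0.30 (limma adjusted p = 0.00191). The SD among the tumors was 0.81 for TAP1 and 0.60 for TAP2, against 0.03 for both in the normals.

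Tapasin, which bridges the transporter and the class I molecule, had the second largest difference. TAPBP was -1.76, -2.09, -1.69 and -2.47 in normals A to D and -1.97 to 1.31 in the tumors, with a median of 0.10. Tumor 10 was the only tumor within the range of the normals, and tumor JE came next at -1.66. The difference was 1.94 ± 0.35 (limma adjusted p = 1.17e-05). CALR, a chaperone of newly made glycoproteins that also retains class I molecules, was -1.73, -1.70, -1.58 and -2.00 in the normals and -0.81 to 0.70 in the tumors, with a median of 0.06. Groups did not overlap, and the difference was 1.78 ± 0.19 (limma adjusted p = 2.38e-10). ERAP1, the peptidase that shortens peptides to the length class I molecules bind, was -1.73, -2.08, -1.92 and -2.12 in the normals and -0.55 to 0.82 in the tumors, with a median of 0.06. It did not overlap either, and its difference of 2.08 ± 0.20 (limma adjusted p = 2.4e-11) lay at percentile 98.4 of all genes tested. ERAP1 and CALR also varied least among the tumors, with SDs of 0.37 and 0.34 that lay at percentiles 20.6 and 16.9 of all genes tested.

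The immunoproteasome subunits differed in the spread of their normals. PSMB8 was -0.74, -1.09, -0.97 and -0.83 in normals A to D and -0.94 to 2.16 in the tumors, with a median of 0.22. Of the tumors 2 lay within the range of the normals and 27 above it. The difference was 1.29 ± 0.44 (limma adjusted p = 0.0100). PSMB9 was -0.08, -0.91, -0.02 and -0.73 in the normals and -1.19 to 2.02 in the tumors, with a median of 0.28. Normals A and C were near the middle of the tumors and normals B and D in their lower part, so that 11 tumors fell within the normals, 17 above and 1 below. The difference was 0.72 ± 0.45 (limma adjusted p = 0.154). Whether the differences of PSMB8 and PSMB9 differ from each other was not tested.

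NLRC5 was the most variable member. It was -0.38, -0.43, -0.77 and -0.15 in normals A to D and -1.73 to 3.59 in the tumors, with a median of 0.19. Of the tumors 17 lay above all normals, 7 below and 5 among them, and the difference was 0.68 ± 0.65 (limma adjusted p = 0.351). Its SD of 1.32 among the tumors was at percentile 88.9 of all genes tested. Tumor Da6 was highest at 3.59, followed by tumor 20 at 2.52, and tumor 3 was lowest.

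The class II activator and the invariant chain had similar ranges. CIITA was -1.21, -0.89, -0.73 and -1.02 in normals A to D and -2.26 to 2.15 in the tumors, with a median of 0.07. Here 23 tumors were above every normal and 2 below, and the difference of 0.96 ± 0.45 missed both thresholds (limma adjusted p = 0.0562). CD74 was -0.83, -1.28, -1.04 and -1.29 in the normals and -2.32 to 2.70 in the tumors, with a median of 0.06. Tumors Sp and 3 were below the normals, the other 27 were above, and the difference was 1.25 ± 0.48 (limma adjusted p = 0.0214). Without normal B or normal D the difference was 1.19 in both cases, with limma adjusted p values of 0.0584 and 0.0610, and without normal A or normal C they were 0.0345 and 0.0432.

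The other genes of the pathway were described from lists, each beside the 10.7% of all genes called higher and the 45.8% called lower. Of 10 genes for the proteasome and peptide trimming, 4 rose and none fell. PSMB10, the third inducible subunit, rose by 2.15 ± 0.39 (limma adjusted p = 9.75e-06), and the activator subunits PSME2 by 1.74, PSME3 by 1.29 and PSME1 by 1.09, all 4 with every tumor above every normal. The constitutive subunits PSMB5, PSMB6 and PSMB7 had log2 differences of 0.85, 0.54 and 0.71, below the 2-fold threshold, and the trimming peptidase ERAP2 one of 0.29 that was -0.01 in the DESeq-normalized table. In that table PSMB10 and PSME2 were called, and PSME1 and PSME3 were under 2-fold. All 5 of the loading and chaperone genes rose: HSPA5 by 2.37, HSP90B1 by 2.27, PDIA6 by 1.78, CANX by 1.32 and the translocon subunit SEC61A1 by 1.24, the last of which was below 2-fold in the DESeq-normalized table. HSPA5 and HSP90B1 are the main lumenal chaperones of the endoplasmic reticulum.

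Of 3 class I heavy chain genes, DLA-88, the main classical one, rose by 1.63 ± 0.50 (limma adjusted p = 0.00475) and DLA-64 by 1.11 ± 0.50 (adjusted p = 0.0458), while DLA-79 had a difference of 0.96 (adjusted p = 0.235). DLA-64 had a difference of 0.81 in the DESeq-normalized table and was not called there. These genes are close copies of each other, and reads may have been shared among them. Of 12 class II genes 3 rose, DLA-DMA by 1.17, DLA-DQB1 by 1.15 and the protease CTSS by 1.04, and none of the 3 was called in the DESeq-normalized table. The 2 that fell were DLA-DOA, which restrains peptide loading, by 1.46, and HLA-DPB1, by 2.74. Both fell in both tables. HLA-DPB1 was at its lowest value in 9 of the 29 tumors and in no normal, so the size of its difference depends on that value. The chains DLA-DRA and HLA-DRB1 had differences of 0.61 and 0.87 with adjusted p values of 0.176 and 0.0895 in limma. The list's median difference was 0.82.

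Among 15 genes of interferon gamma signalling, 5 rose and 2 fell. IDO1 rose by 2.58, the transcription factor IRF1 by 1.94, WARS by 1.66, STAT2 by 1.64 and IRF9 by 1.20, and IRF9 was below 2-fold in the DESeq-normalized table. IFNG itself, the ligand, fell by 4.95, at percentile 6.1 of all genes tested. It was at its lowest value in 14 of the 29 tumors and in no normal, so the size of its difference depends on that value. GBP5 fell by 1.66. Of 8 genes for MHC transcription, NFYA rose by 1.31 and the others did not pass, among them RFX5 at 0.71 and EZH2 at 0.91. RFXAP, a subunit of the factor that binds MHC promoters with CIITA and NLRC5, had a difference of -0.84, the median of all genes tested, with every tumor below every normal, as for 6972 of the 24471 genes. It was called lower in the DESeq-normalized table.

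Co-variation was then measured over the 29 tumors alone. Pearson's r was computed between each member and every gene that varied, with a permutation p from 100000 resamples adjusted by Benjamini-Hochberg over 240835 pairs. Of the 45 pairs between members, 10 were called positive, against 0.151% of all pairs of a member with a gene, and all 45 had r above 0, from 0.11 to 0.89. The called pairs fell into a class I group of TAP1, TAP2, TAPBP, PSMB8 and PSMB9, with 9 of its 10 pairs called, and the pair of CIITA and CD74. The 5 genes of the first group lie on the same chromosome in the RefSeq gene order, where TAP2, PSMB8, TAP1 and PSMB9 follow each other directly and TAPBP lies 16 to 19 protein-coding genes away. CIITA and CD74 share no chromosome with each other or with these genes. NLRC5, ERAP1 and CALR had no called pair with another member.

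**Figure D2:**
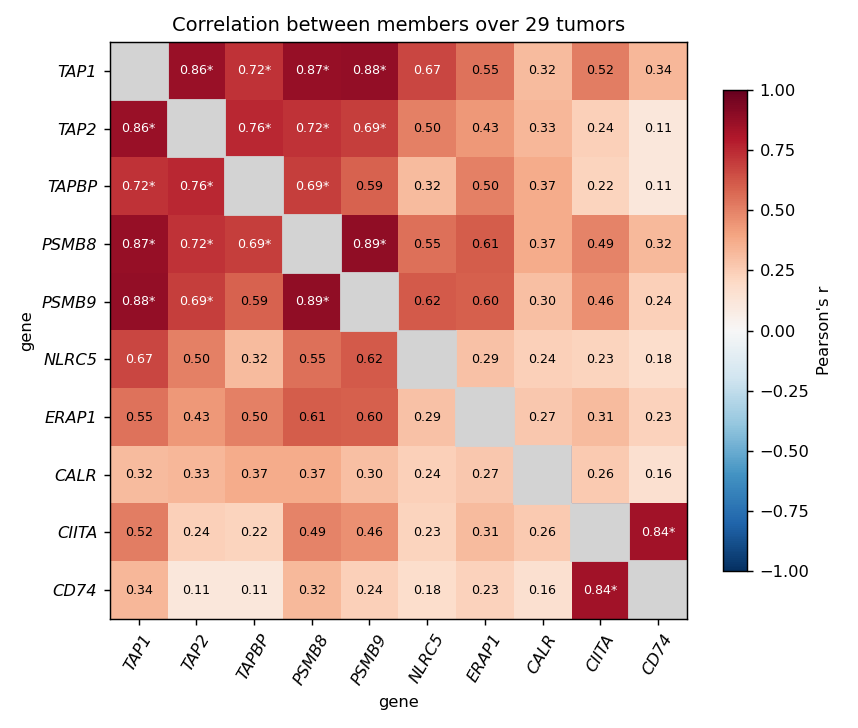
Pearson's r between every pair of members over the 29 tumors, with an asterisk where the adjusted permutation p was at most 0.05. The upper left block of TAP1, TAP2, TAPBP, PSMB8 and PSMB9 runs from 0.59 to 0.89, and CIITA with CD74 has an r of 0.84.

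Within the class I group the immunoproteasome subunits were the closest pair. PSMB8 and PSMB9 had an r of 0.89 and a rho of 0.85, each with a permutation p of 1e-05, the smallest the permutations can give, and adjusted p values of 0.0172 and 0.0241. TAP1 followed PSMB9 (r = 0.88), PSMB8 (r = 0.87) and TAP2 (r = 0.86) with the same permutation p, and rho was 0.86, 0.86 and 0.85. Leaving out the 2 tumors most distant from the TAP1 median, these r values were 0.84, 0.83 and 0.82. TAPBP followed TAP2 (r = 0.76), TAP1 (r = 0.72) and PSMB8 (r = 0.69). By rho TAPBP was not called with TAP2 (0.69, adjusted permutation p = 0.0505), and r with TAP1 was 0.64 without the 2 extreme tumors (adjusted permutation p = 0.0752). TAPBP with PSMB9 was not called at an r of 0.59 (adjusted permutation p = 0.124). TAP2 with PSMB9 had an r of 0.69 (adjusted permutation p = 0.0372) and was not called by rho (0.67, adjusted p = 0.0873).

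The same tumors were often high or low for several members. Tumor 20 was among the 5 highest tumors for 7 members, tumor Sn for 9, tumor 5 for 8 and tumor Ja for 6. TAP1 was 2.08 in tumor 20, 2.01 in tumor Sn, 1.42 in tumor 5 and 1.09 in tumor Ja, and PSMB8 was 2.03, 1.79, 1.88 and 1.48 in the same tumors. At the other end, tumor 3 was among the 5 lowest for 7 members and tumor 10 for 6. Tumor 10 had the lowest TAP1, TAPBP and PSMB8 (-0.96, -1.97 and -0.94), yet CD74 was 0.92 there. Tumor 3 had the lowest PSMB9, NLRC5, CIITA and CD74, while its CALR was 0.00 and its TAP2 -0.16.

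**Figure D3:**
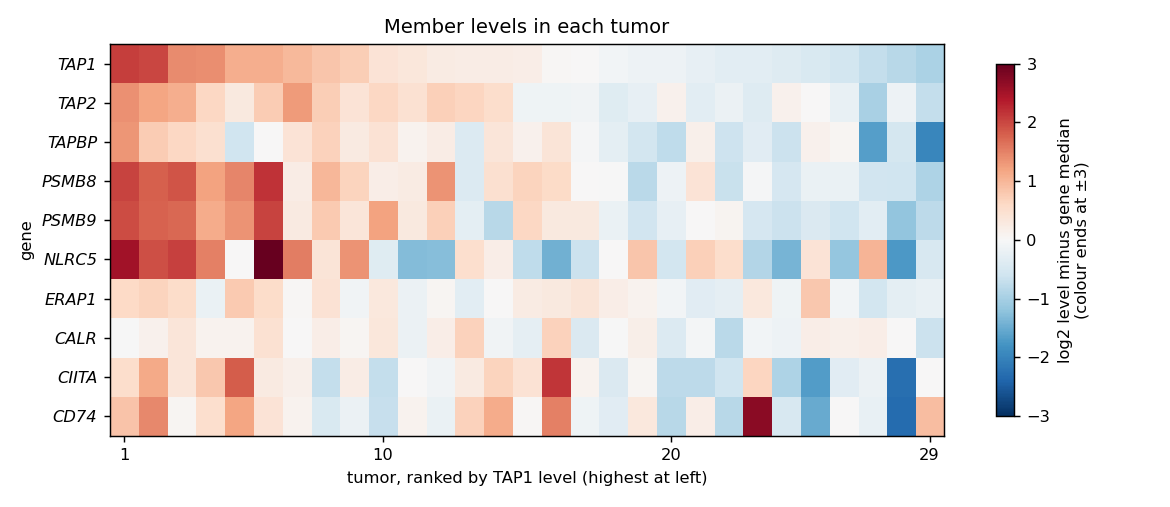
Level of each member (rows) in each tumor (columns, ranked by TAP1 from highest at the left), as log2 value minus the gene's median, red above and blue below it. The TAP1 row falls from 2.08 to -0.96 by the ranking itself, and the TAP2, PSMB8 and PSMB9 rows largely follow it. Other rows depart from it, with TAPBP at -0.60 in tumor Ja near the left end. Near the right end ERAP1 is 0.82 in tumor Sp and NLRC5 is 1.03 in tumor JE. The CALR row stays between -0.81 and 0.70.

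NLRC5 was nearest to TAP1 among the members. Its r with TAP1 was 0.67 (permutation p = 0.00011, adjusted p = 0.0576) and its rho 0.55 (permutation p = 0.00264, adjusted p = 0.227), and r was 0.58 once the 2 tumors most distant from the TAP1 median were left out. This pair stood at the threshold, since its adjusted permutation p was 0.0461 in the DESeq-normalized table and 0.0445 with a stricter filter. Its r with PSMB9, PSMB8, TAP2 and TAPBP was 0.62, 0.55, 0.50 and 0.32. The genes nearest to NLRC5 were LOC100684769 (r = 0.84), IFGGB1 (r = 0.82) and GBP1 (r = 0.81), the last an interferon-induced GTPase, each with an adjusted permutation p of 0.0172. GBP5 (r = 0.80), CD274, which encodes the checkpoint ligand PD-L1 (r = 0.79), the signalling inhibitor SOCS1 (r = 0.68) and the heavy chain DLA-64 (r = 0.80) were called as well. In all, 0.39% of genes were called positive with NLRC5.

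Some lymphocyte markers were called with NLRC5. Of 10 T and cytotoxic lymphocyte markers 4 were called with it, the kinase LCK (r = 0.72), CD2 (r = 0.71), CD3D (r = 0.71) and CD3E (r = 0.70), and all 10 had r above 0, with a lowest value of 0.45. Of the 4 pan leukocyte markers 2 were called, CORO1A (r = 0.71) and PTPRC (r = 0.67), as were the chemokine receptor CCR7 (r = 0.77), 1 of 5 dendritic cell markers, and CD79A (r = 0.67), 1 of 9 B and plasma cell markers. By rho the calls of LCK, CD3E, PTPRC and CD79A were not made, nor was that of SOCS1 (adjusted permutation p = 0.0529). Leaving out the 2 tumors most distant from the NLRC5 median, r was 0.69 with LCK, 0.61 with CD2, 0.66 with CD3D and 0.64 with CD3E. In the same way it was 0.64 with CORO1A, 0.57 with PTPRC and 0.72 with CCR7. The mean level of the T cell list ran from -1.99 to 2.52 over the tumors and from 0.19 to 0.80 in the normals. No marker of any of the 9 cell type lists was called with another member. Median r with the T cell list was 0.65 for NLRC5 and ran from -0.10 (CD74) to 0.29 (PSMB9) for the 9 other members, with CALR at 0.24, and whether these medians differ was not tested. The part of infiltrating leukocytes in the level of NLRC5 was not tested.

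ERAP1 had r values of 0.43 to 0.61 with the class I group, none of them called, the highest with PSMB8 (adjusted permutation p = 0.120). The only gene called with ERAP1 was STARD5, a lipid transfer protein gene (r = 0.69, rho = 0.69, adjusted permutation p = 0.0372 and 0.0505). PLSCR1 and IRX3 came next at 0.65 (adjusted permutation p = 0.0541 and 0.0755). CALR had r values of 0.16 to 0.37 with the 9 other members. The genes nearest to it were MANF (r = 0.71, rho = 0.73, adjusted permutation p = 0.0288 and 0.0351), a secreted protein of the endoplasmic reticulum stress response, SRRT (r = 0.70, rho = 0.53, adjusted p = 0.0330 and 0.246) and RBM8A (r = 0.66, adjusted p = 0.0541). Leaving out the 2 tumors most distant from the CALR median, r was 0.65 with MANF and 0.55 with SRRT. The chaperones HSP90B1 and HSPA5 had r values of 0.64 and 0.55 with CALR and were not called, and their r with TAP1 was 0.29 and 0.24.

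Among the class II genes, CIITA and CD74 had an r of 0.84 and a rho of 0.85 (permutation p = 1e-05 for both, adjusted p = 0.0172 and 0.0241), and r was 0.78 once the 2 tumors most distant from the CIITA median were left out. Both were highest in a few tumors, with CIITA at 2.15 and CD74 at 1.52 in tumor Ab, and at 1.82 and 1.18 in tumor Ja. Tumor 11 departed from this, with the highest CD74 of 2.70 and a CIITA of 0.65. Both were lowest in tumor 3 (-2.26 and -2.32) and next lowest in tumor Sp. Neither was called with any of the 8 other members, with r values of 0.11 to 0.52, the highest between CIITA and TAP1 (rho = 0.59, adjusted permutation p = 0.282 for r and 0.147 for rho).

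The genes nearest to CIITA were class II genes: DLA-DMB (r = 0.85), which helps to load peptides, and the chains DLA-DQA1 (r = 0.83) and HLA-DRB1 (r = 0.82), each with an adjusted permutation p of 0.0172. Their rho values were 0.72, 0.67 and 0.70, and r without the 2 extreme tumors was 0.79, 0.77 and 0.76. With DLA-DRA, DLA-DMA and DLA-DQB1 this made 6 of 12 genes of the class II list called with CIITA, while 0.0291% of all genes were called positive with it. By rho DLA-DMB and HLA-DRB1 of the 6 were called, and the other 4 had adjusted permutation p values of 0.0595 to 0.0970. CD74, with 10 of 24088 genes called positive, was called with 3 genes of that list, HLA-DRB1 (r = 0.70), DLA-DQA1 (r = 0.69) and DLA-DMA (r = 0.67), and by rho with none of these 3 (adjusted permutation p = 0.0970, 0.0730 and 0.0681). The list genes without a call for CIITA included the proteases CTSS and LGMN, the reductase IFI30, and DLA-DOA and HLA-DPB1, with r values between -0.001 and 0.19. DLA-DOB had an r of 0.62. RFX5, the DNA-binding partner of CIITA, had an r of 0.60 with it and was not called.

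**Figure D4:**
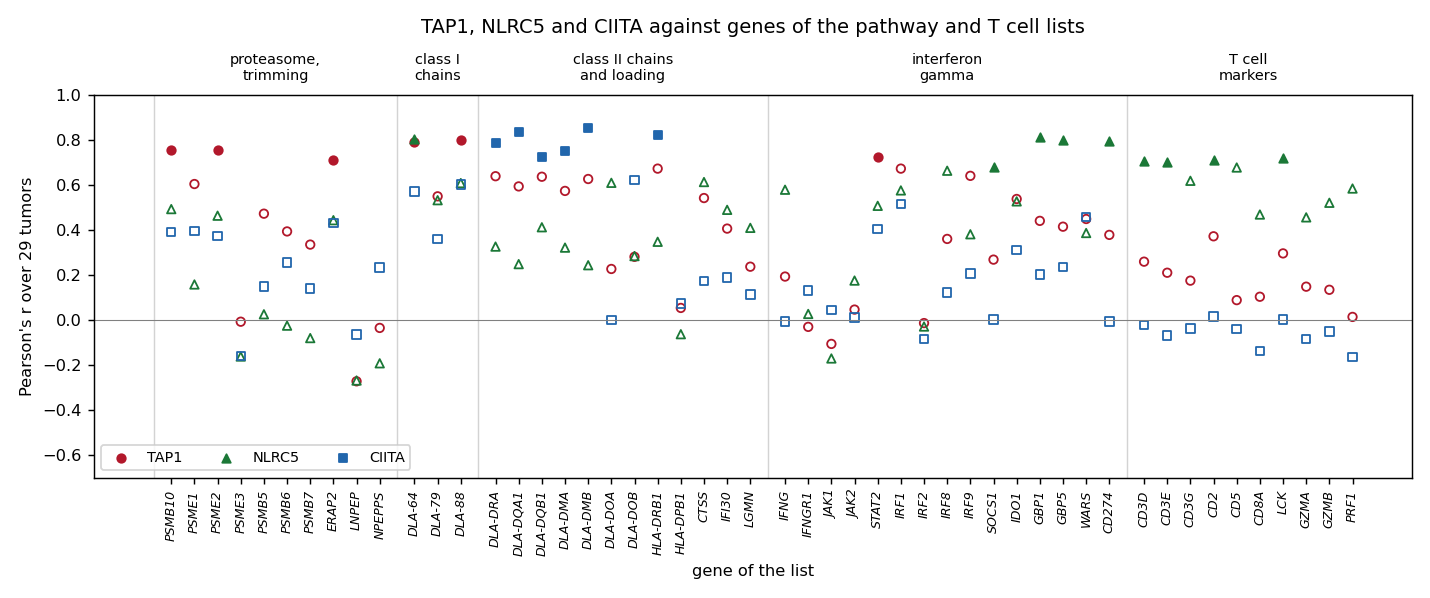
Pearson's r over 29 tumors of TAP1 (red circles), NLRC5 (green triangles) and CIITA (blue squares) with genes of 4 pathway lists and the T cell marker list; filled symbols had an adjusted permutation p of at most 0.05. CIITA was called with 6 class II genes, NLRC5 with 4 T cell markers, and TAP1 with PSMB10, PSME2, ERAP2, DLA-64, DLA-88 and STAT2.

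Some class II genes were called with the immunoproteasome subunits. Of all 24088 genes 65 were called positive with PSMB8 and 32 with PSMB9. PSMB8 was called with 5 of the 12 class II genes, DLA-DRA (r = 0.74), DLA-DMA (r = 0.72), HLA-DRB1 (r = 0.69), DLA-DQB1 (r = 0.68) and DLA-DMB (r = 0.66), and PSMB9 with 3 of them, whereas TAP1, TAP2 and TAPBP were called with none. By rho DLA-DQB1 was called with neither subunit (adjusted permutation p = 0.0529 for PSMB8 and 0.0822 for PSMB9). The r of TAP1 with HLA-DRB1 was 0.67, and whether PSMB8 and TAP1 differ in this was not tested.

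**Figure D5:**
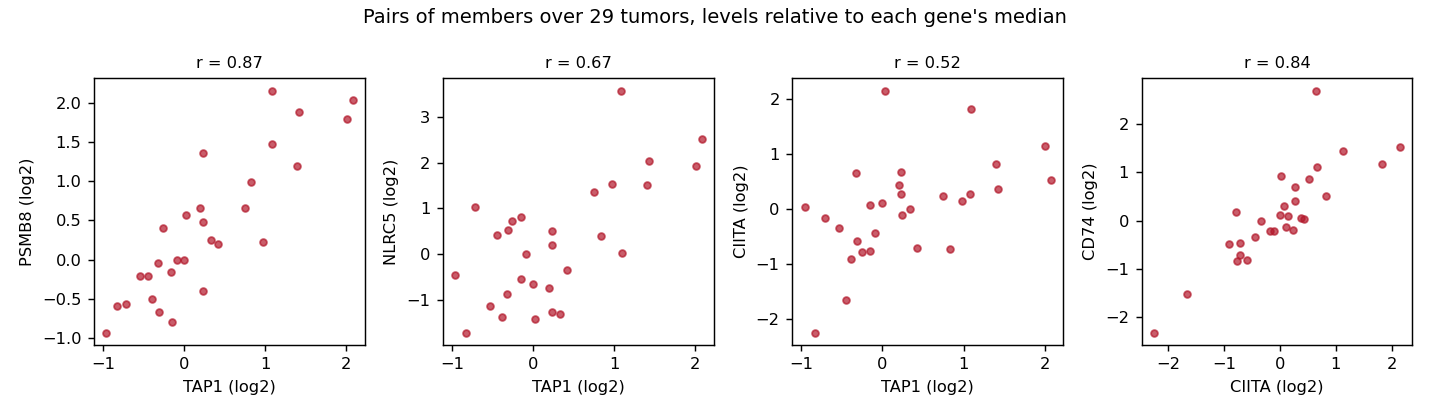
Levels of 4 pairs of members in the 29 tumors, each axis in log2 units relative to the gene's median and each point a tumor. TAP1 with PSMB8 (r = 0.87) and CIITA with CD74 (r = 0.84) lie along a line, TAP1 with NLRC5 (r = 0.67) and TAP1 with CIITA (r = 0.52) spread more widely.

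The genes nearest to the class I group outside the members were then listed. The 3 genes nearest to TAP1 were IFI35 (r = 0.86), an interferon-induced protein gene, the ETS factor ETV7 (r = 0.82) and NEURL3 (r = 0.82). For PSMB8 they were ETV7 (r = 0.87), PSMB10 (r = 0.85) and IFI35 (r = 0.84), for PSMB9 ETV7 (r = 0.80), DLA-64 (r = 0.79) and DLA-88 (r = 0.78), for TAP2 IFI35 (r = 0.77), LOC606863 (r = 0.76) and ZNFX1 (r = 0.75), and for TAPBP SLC44A4 (r = 0.82), SLC39A7 (r = 0.81) and AGPAT1 (r = 0.80). All of these pairs had adjusted permutation p values of 0.0172 or 0.0238. ETV7 lies on the chromosome of the class I group, 66 to 68 protein-coding genes from PSMB9, TAP1 and PSMB8. DLA-64 and DLA-88 lie there too, 74 and 77 genes from PSMB9. By rho TAP2 with ZNFX1, TAPBP with SLC44A4 and PSMB9 with DLA-64 were not called (adjusted permutation p = 0.0505, 0.0681 and 0.0970). TAP1 was called positive with 0.249% of all genes and PSMB8 with 0.27%. PSME2 was called with all 5 genes of the group, PSMB10 with 4 and ERAP2 with TAP1, PSMB8 and PSMB9. By rho PSME2 was called with TAP1, TAPBP and PSMB8, PSMB10 with TAP1 and PSMB8, and ERAP2 with PSMB8. The constitutive subunits PSMB5, PSMB6 and PSMB7 were called with none of the group and had r values of 0.25 to 0.61 with it. STAT2 was called with TAP1 (r = 0.72), TAPBP (r = 0.70) and PSMB8 (r = 0.80), and IRF9 with TAPBP (r = 0.74). STAT2 with TAP1 was not called by rho (adjusted permutation p = 0.0892). IFNG, which was at its lowest value in 14 of the 29 tumors, had r values of 0.03 to 0.19 with the 5 genes and 0.58 with NLRC5, none called. Its r with TAP1 was 0.43 in place of 0.19 without the 2 extreme tumors, and with TAPBP -0.10 in place of 0.03. Of 80 pairs of a member with a gene for MHC transcription none was called, the highest being CIITA with RFX5.

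Over the tumors no pair of a member with a smooth muscle, fibroblast, endothelial, myeloid or urothelial marker was called. The r values were -0.44 to 0.19 over the 60 pairs with a smooth muscle marker, -0.53 to 0.33 over the 60 with a fibroblast marker and -0.46 to 0.37 over the 40 with an endothelial marker. They were -0.44 to 0.49 over the 80 pairs with a myeloid marker and -0.50 to 0.53 over the 70 with a urothelial marker. NLRC5 had r values below 0 with all 7 urothelial markers, with a median of -0.38.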

How the data were processed

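RNA from 29 canine iUC tumors and 4 normals was sequenced in 1 batch after removal of ribosomal RNA. The authors aligned paired-end reads to CanFam 3.1 with COBWeb in Strand NGS, normalized the annotated genes in 2 ways (TMM and DESeq), and deposited tables of log2 values centred on the median of each gene. Tumors were of high grade with mostly epithelial cells, and the normals were stripped by fine dissection. The values are not counts, so the total count of a sample is unknown and no count test was run. Many genes share a lowest value over several samples, read here as the floor before the log. The last line of either table is incomplete in the copies used and was dropped, leaving 25096 and 25139 genes.

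Testing was limited to genes that exceeded a shared lowest value in 4 samples or more, or had none. For the group comparison limma 3.58.1 was run in R 4.3.3 (moderated two-sided test with eBayes and its trend option), with Benjamini-Hochberg adjustment over all 24471 genes tested. Co-variation used Pearson's r over the tumors with a two-sided permutation p (100000 resamples, smallest p 1e-05), adjusted over all pairs of a member and a gene, each pair of members once, so that 0.0172 was the smallest adjusted p. Both steps were tested on simulated data. Python 3.11.15, numpy 2.4.6, pandas 2.3.3, scipy 1.17.1 and matplotlib 3.10.9 were used.

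The named genes are the 10 members, the 3 genes with a symbol and the largest r for each member, the 10 with the largest mean r, and pathway and cell type lists. The members and lists were chosen with earlier results of these data known. Of the 25096 genes 12202 carry a symbol, and 1123 more were named by Entrez ID through a RefSeq gene table (UU_Cfam_GSD_1.0), which also gave the order of genes. List genes without a single row, among them B2M and CD4, were not analysed here. A search of promoter sequences was planned and was not done, since no sequence was used here. The study's methods give 1 tumor per dog, which the labels do not state, and the groups share no replicate numbers. Alternatives were the second table deposited by the authors (DESeq), limma with no trend or with group weights, other filters, samples recentred on the genes with a median over the floor, normals dropped one at a time, adjusted p alone, Spearman's rho, the share of genes above the lowest value regressed out, and the 2 tumors farthest from the median left out.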

Additional observations from a re-analysis of the deposited data

How the results depend on the processing

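All 10 members had a positive log2 difference between tumors and normals under every alternative run, and the r of the 10 pairs followed through the alternatives stayed positive. The number of members called higher was 7 and became 4 in the DESeq-normalized table, where TAP2, PSMB8 and CD74 were lost and 1377 of all genes, against 2615, were called higher. With each normal left out in turn it was 6 to 7, and 2222 to 2695 of all genes were called higher and 10596 to 11067 lower. With adjusted p alone and no fold-change threshold it stayed at 7, while 5603 of all genes were called higher. With genes above their lowest value in at least 17 samples it was again 7, while the genes called lower numbered 5543 in place of 11206, since fewer genes were tested. Of the 45 member pairs, 10 were called, and 7 to 11 over the alternatives. All 8 pairs called by Spearman's rho and all 7 called without the 2 extreme tumors were among those 10. The pairs of TAP1 with PSMB8, PSMB9 and TAP2, of PSMB8 with PSMB9 and of CIITA with CD74 were called under each alternative, with r from 0.78 to 0.89. No paired analysis was possible because normals and tumors share no replicate number. The precision of the normals is limited by their number of 4, and the depth behind each value is unknown. Pairs with r under about 0.65 could rarely pass the correction over 240835 pairs.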

Other observations

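Averaged over the 10 members, the genes that moved most closely with them over the tumors were DLA-88 (mean r = 0.60), DLA-64 (0.58), IFI35 (0.57), ETV7 (0.57), PSME2 (0.56), LGALS9 (0.55), ZNFX1 (0.55), DLA-DRA (0.55), HLA-DRB1 (0.54) and TRANK1 (0.54). DLA-88 had an r of 0.42 or more with each member, while the lowest r of IFI35 with a member was 0.15. LGALS9 encodes the lectin galectin-9.

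The 3 genes nearest to TAPBP in r were SLC44A4 (r = 0.82), SLC39A7 (r = 0.81) and AGPAT1 (r = 0.80), none of them an antigen presentation gene, and they lie 55, 9 and 38 protein-coding genes from TAPBP in the RefSeq order. For SLC44A4 rho was 0.68 (adjusted permutation p = 0.0681), and r was 0.66 once the 2 tumors most distant from the TAPBP median were left out. The 35 genes in the table within 25 genes on either side of TAPBP, members left out, had a median r of 0.42 with it, against 0.01 over all genes, and 4 of them were called, as were 60 of all 24088 genes. Around PSMB8 the median was 0.31 over 34 genes, 4 of them called, and around PSMB9 0.34 over 34, 2 of them called. Around TAP1 and TAP2 the medians were 0.26 and 0.25 over 34 and 35 genes, and none was called. Around CD74 the median was 0.19 over 38 genes, 2 of them called, where HMGXB3, 8 genes from CD74, had the highest r with it (0.71, and 0.51 without the 2 extreme tumors) and was not called by rho (adjusted permutation p = 0.0595). Around CIITA and NLRC5 the medians were -0.003 and -0.04, and around ERAP1 and CALR 0.13 and 0.11, with none called around these 4. These neighbours share libraries and overlap between the members of the class I group, and the median of a window was not tested. Genes of the class II list were not left out of the windows. Their calls with PSMB8 and PSMB9 given above may therefore be counted again here.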
